A study of Homo sapiens with 3 samples.

Results

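The genes described here encode the core proteins of the spliceosomal small nuclear ribonucleoproteins (snRNPs), the RNA and protein particles that cut introns out of pre-mRNA. They were chosen by symbol, as the SF3A, SF3B, PRPF and SNRNP genes with a number, LSM1 to LSM8, and the 11 SNRP genes of the U1, U2 and Sm proteins. This gave 48 of the 60930 entries of the expression table, with no pseudogene among them. RNA-seq was performed on 3 libraries of PC3, a prostate cancer cell line that grows without androgen. The cells, under puromycin selection, carried a vector control (shCON) or, in the pLKO.1 vector, 1 of 2 hairpins against USP16 (shUSP16#1 and shUSP16#2). USP16 is a deubiquitinase, and its knockdown asks which genes depend on it in these cells. There was 1 library per condition, so no difference below has a replicate check and no p-value is given.

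Each spliceosomal snRNP is built around a ring of Sm proteins (SNRPB, SNRPD1, SNRPD2, SNRPD3, SNRPE, SNRPF and SNRPG), which closes on the snRNA in the cytoplasm with the help of the SMN complex. U6 snRNA carries a ring of LSm proteins in its place, LSM2 to LSM8, and a second ring in which LSM1 replaces LSM8 takes part in mRNA decay. The U1 proteins serve the 5' splice site, the U2 proteins with SF3A and SF3B the branch point, and the large proteins of the U4/U6.U5 tri-snRNP form and remodel the catalytic centre. Splicing is needed in every cell, and several of these genes, such as SF3B1, are recurrently mutated in cancer.

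Levels are in TPM, an abundance per transcript length in which every library has the same total. Levels of different genes are set side by side on this scale only as far as the length used for each gene is right, and the sequencing depth is unknown. Where 3 TPM values stand in a row, they are in the order shCON, shUSP16#1, shUSP16#2. Changes are log2(TPM + 1) under a hairpin minus shCON, given for shUSP16#1 and then shUSP16#2, and this scale understates the change of low genes. Both changes use the same shCON library. In bulk RNA, fewer cells holding a transcript and fewer copies per cell cannot be told apart.

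USP16 itself stood at 19.9, 3.50 and 1.08 TPM. The epithelial markers EPCAM, KRT8, KRT18 and CDH1 lay between 46.4 and 947 TPM in all libraries, while the luminal prostate markers KLK2 and KLK3 were listed at 0. Of the markers of blood, endothelial and fibroblast cells, CD68 lay between 31.7 and 42.2 TPM and COL1A1 reached 10.7 TPM under shUSP16#1, and the other 8 stayed at or under 1.28 TPM. A mean of 1 TPM or more was required, which kept 13637 genes, and their median change was -0.17 under shUSP16#1 and -0.37 under shUSP16#2. All 48 snRNP genes passed this minimum, and 47 reached a mean of 5 TPM.

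In the control library the Sm genes differed widely in level although their proteins sit in 1 ring. SNRPB, which encodes the B and B' proteins, and SNRPD2, the partner of SNRPD1, stood at 607 and 605 TPM in shCON. SNRPD1 stood at 23.2 TPM in shCON, which was 3.84% of SNRPD2. The highest Sm gene was thus 26.1 times the lowest in shCON, a ratio that was 44.5 and 56.9 under shUSP16#1 and shUSP16#2. For the LSm genes the same ratio of TPM, LSM4 over LSM8, came to 14.8 for shCON, 28.8 for shUSP16#1 and 50.9 for shUSP16#2.

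The order of these levels followed the gene length listed in the table. Over the 15 Sm and LSm genes the Spearman rank correlation of listed length with TPM in shCON was -0.73, and over all 48 members it was -0.67. SNRPG, a short Sm gene, had a listed length of 527 bases, against 4858 bases for SNRPD1 and 12384 bases for LSM8. The longest LSM8 transcript in GENCODE release 29 has 4030 bases, so the listed value is longer than any annotated transcript of this gene. Multiplied back by listed length, the spread of the Sm genes in shCON narrowed from 26.1 to 5.42 times and that of the LSm genes from 14.8 to 7.77 times. Points in these correlations share 1 library and a unit that already contains length, and whether the listed length was the divisor is not given in the sources used here.

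**Figure D1:**
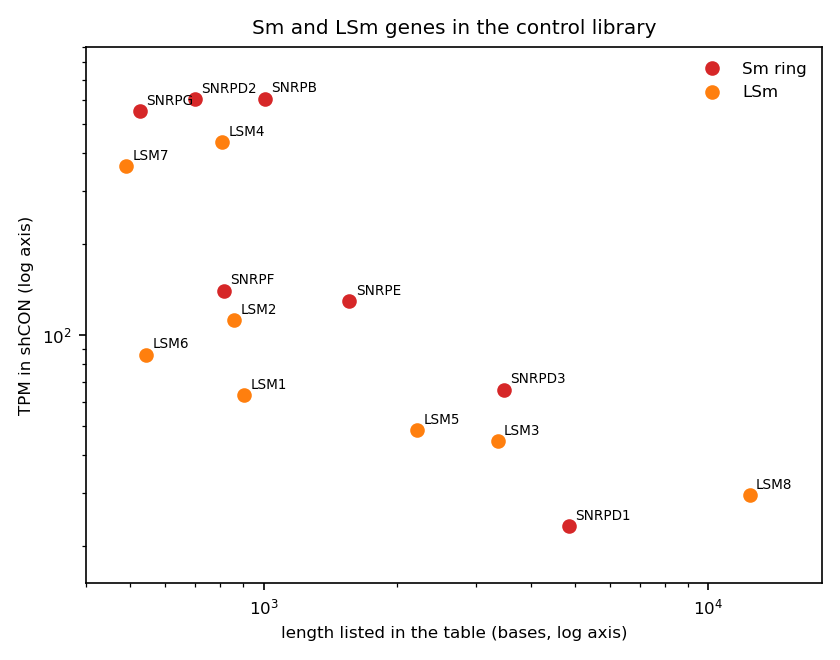
TPM in shCON (log axis) against the gene length listed in the table (bases, log axis) for the 7 Sm and 8 LSm genes, 1 point per gene. SNRPB, SNRPD2 and SNRPG lie at 551 TPM or more at short listed lengths, and SNRPD1 and LSM8 lie at 23.2 and 29.4 TPM at the longest.

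Most members were below their control level under both hairpins. Under shUSP16#1, 39 were lower than in shCON, against 61.7% of all genes examined, and under shUSP16#2 37 were lower, against 70.2%. Lower under both were 37 (77.1%), against 57.2% of all genes, and higher under both were 9, against 24.5%. SNRPB and SNRNP40 were lower under shUSP16#1 and higher under shUSP16#2.

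The median change of the 48 genes was -0.40 under shUSP16#1 and -0.53 under shUSP16#2. Relative to the medians of all genes examined these were -0.23 and -0.17, so the excess over the general shift was small. Relative to the same medians, 34 members were lower and 12 higher under both, against 41.7% of all genes in each direction. Together the members held 0.629% of all TPM in the control, 0.567% with shUSP16#1 and 0.545% with shUSP16#2. For 39 of the 48 the level under shUSP16#2 was below that under shUSP16#1, as for 73.4% of all genes. USP16 was also lower under shUSP16#2 than under shUSP16#1.

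On the log2(TPM + 1) scale no member was at least 2-fold lower under shUSP16#1, against 5.79% of all genes, so none was under both, against 4.6%. Under shUSP16#2, 10 members were at least 2-fold lower (20.8%), a share close to the 19.5% of all genes. Among these were SF3B1, LSM8, PRPF38B, SNRPE, SNRNP48, PRPF18, PRPF4B, SNRNP27 and PRPF39, and LSM5 lay just short of the threshold at -0.99. Taken as plain TPM, SNRNP48 was at 42.3% and 34.02% of its control level, so more than 2-fold lower under both hairpins, and LSM5 and SNRPD1 were at 49.2% and 49.8% under shUSP16#2. At a threshold of 1.5-fold, 11 members were lower under both (22.9%), against 20.8% of all genes, and 0 were higher, against 4.03%. A 2-fold higher level was reached by 0 members under either hairpin, against 2.83% of all genes under shUSP16#1, 2.8% under shUSP16#2 and 1.14% under both.

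**Figure D2:**
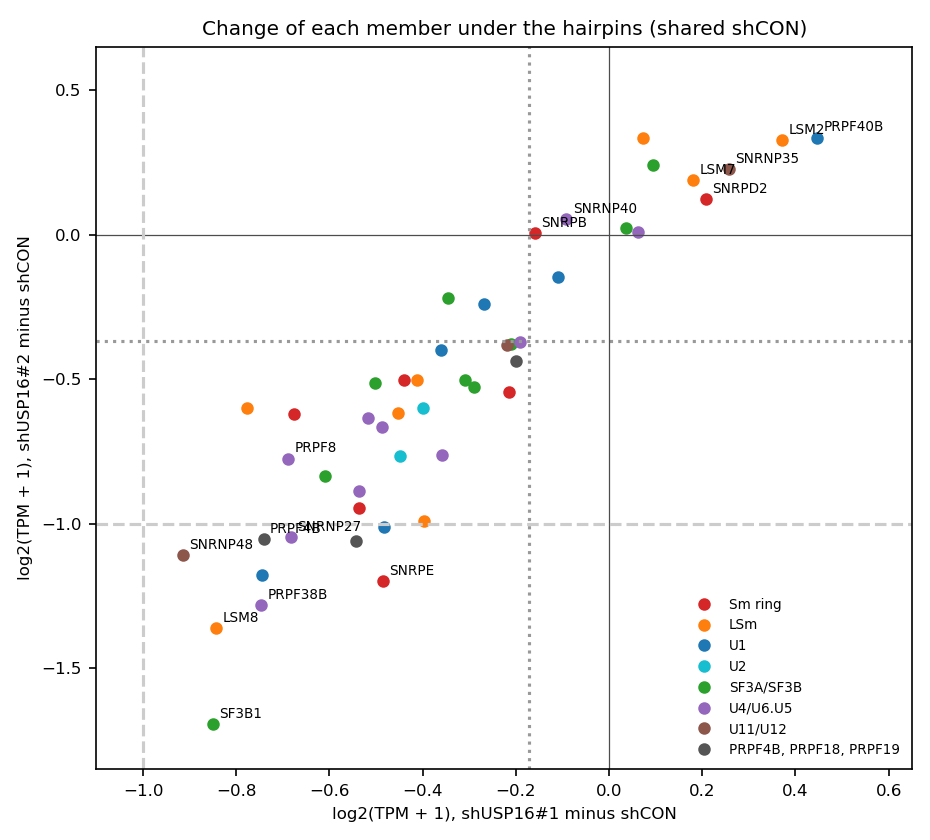
Change in log2(TPM + 1) under shUSP16#2 (y axis) against that under shUSP16#1 (x axis) for the 48 genes, coloured by class; both use the same shCON library, dotted lines mark the medians of all genes examined and dashed lines a 2-fold decrease. No gene lies left of the vertical dashed line, and 10 lie under the horizontal one, SF3B1 lowest at -1.70.

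Among the Sm ring genes the median changes were -0.44 and -0.54, with 5 of 7 lower under both hairpins (71.4%), against 57.2% of all genes. That share and the 24.5% higher under both are the all-gene values for each class below. SNRPE, which sits beside SNRPF and SNRPG in the ring, stood at 129.5, 92.2 and 55.8 TPM, changes of -0.49 and -1.20. SNRPD1 stood at 23.2, 15.7 and 11.6 TPM, changes of -0.54 and -0.95. SNRPD3, which pairs with SNRPB, stood at 65.8, 40.8 and 42.4 TPM, changes of -0.68 and -0.62. These 3 genes were lower in both hairpin libraries, SNRPE and SNRPD1 more so under shUSP16#2. SNRPF stood at 140.2, 103 and 98.7 TPM (-0.44 and -0.50) and SNRPG at 551, 475 and 378 TPM (-0.21 and -0.54).

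The other 2 Sm genes did not share this direction. SNRPD2 stood at 605, 699 and 659 TPM, higher under both hairpins, with changes of 0.21 and 0.12. SNRPB stood at 607, 543 and 609 TPM, changes of -0.16 and 0.01, so its level under shUSP16#2 was that of the control. The SNRPD1 level was 3.84% of its partner SNRPD2 in shCON, 2.25% with shUSP16#1 and 1.76% with shUSP16#2. The longest GENCODE transcripts of SNRPD1 and SNRPD2 hold 40.5% and 54.9% GC. Their changes with the trend over GC content removed are given further on. Sm transcripts have many near-identical processed pseudogenes, and values of their parents are uncertain to that extent. Of 66 pseudogene entries of the members, 64 were listed at 0 in all 3 libraries.

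Among the LSm genes, 5 were lower (62.5%) and 3 higher (37.5%) under both hairpins, against 57.2% and 24.5% of all genes. To show how members of 1 ring that moved apart differ in sequence, the coding sequences of LSM6 and LSM8, which were lower, and LSM2, which was higher, are given from GENCODE release 29 (GRCh38), with runs of at least 5 G or C bases in capitals. LSM6 is read from the forward strand between the first and last coding base at chr4:146182922-146189653, LSM8 from the forward strand at chr7:118184224-118191999, and LSM2 from the reverse strand at chr6:31797760-31806757, introns removed.
LSM6 coding sequence: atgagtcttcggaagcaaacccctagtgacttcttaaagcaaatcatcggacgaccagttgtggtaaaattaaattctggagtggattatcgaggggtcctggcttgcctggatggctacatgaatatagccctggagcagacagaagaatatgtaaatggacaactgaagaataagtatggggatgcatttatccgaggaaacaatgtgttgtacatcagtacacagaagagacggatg
LSM8 coding sequence: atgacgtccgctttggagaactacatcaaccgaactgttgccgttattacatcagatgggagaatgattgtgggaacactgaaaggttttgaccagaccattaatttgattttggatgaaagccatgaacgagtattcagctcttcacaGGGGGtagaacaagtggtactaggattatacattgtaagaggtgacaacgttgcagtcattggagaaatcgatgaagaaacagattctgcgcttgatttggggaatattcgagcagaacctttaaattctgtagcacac
LSM2 coding sequence: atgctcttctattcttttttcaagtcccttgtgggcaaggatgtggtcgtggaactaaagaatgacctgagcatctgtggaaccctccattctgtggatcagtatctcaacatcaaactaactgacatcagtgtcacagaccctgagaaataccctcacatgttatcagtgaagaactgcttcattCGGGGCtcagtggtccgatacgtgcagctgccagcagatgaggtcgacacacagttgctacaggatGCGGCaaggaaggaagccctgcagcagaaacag

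The 3 sequences encode proteins of like size, from 80 residues in LSM6 to 96 in LSM8, and differ in base composition. LSM6 had 43.3% GC and no such run, LSM8 had 41.7% GC and 1 run, and LSM2 had 48.8% GC and 2 runs. At the third codon position the GC content was 35.4% in LSM8, 46.25% in LSM6 and 62.1% in LSM2.

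LSM8, the subunit that sets the nuclear U6 ring apart, stood at 29.4, 15.9 and 10.8 TPM, changes of -0.84 and -1.36. LSM6 stood at 85.9, 49.7 and 56.4 TPM, changes of -0.78 and -0.60. LSM1, the subunit of the cytoplasmic decay ring, stood at 63.1, 45.9 and 40.9 TPM, changes of -0.45 and -0.62. Both ring-specific subunits were therefore lower, and LSM8 went from 46.5% of LSM1 in shCON to 34.7% under shUSP16#1 and 26.5% under shUSP16#2. LSM5 stood at 48.2, 36.4 and 23.7 TPM (-0.40 and -0.99) and LSM3 at 44.4, 33.1 and 31.1 TPM (-0.41 and -0.50), both subunits of either ring.

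LSM2 stood at 112, 145 and 141 TPM, changes of 0.37 and 0.33. LSM7 stood at 362, 410.0 and 413 TPM, changes of 0.18 and 0.19. LSM4 stood at 436, 458 and 551 TPM, changes of 0.07 and 0.34. These 3 subunits, shared by the rings, were higher in both hairpin libraries, so the LSm genes spread apart. LSM8 went from 26.2% of LSM2 in shCON to 10.96% under shUSP16#1 and 7.68% under shUSP16#2.

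**Figure D3:**
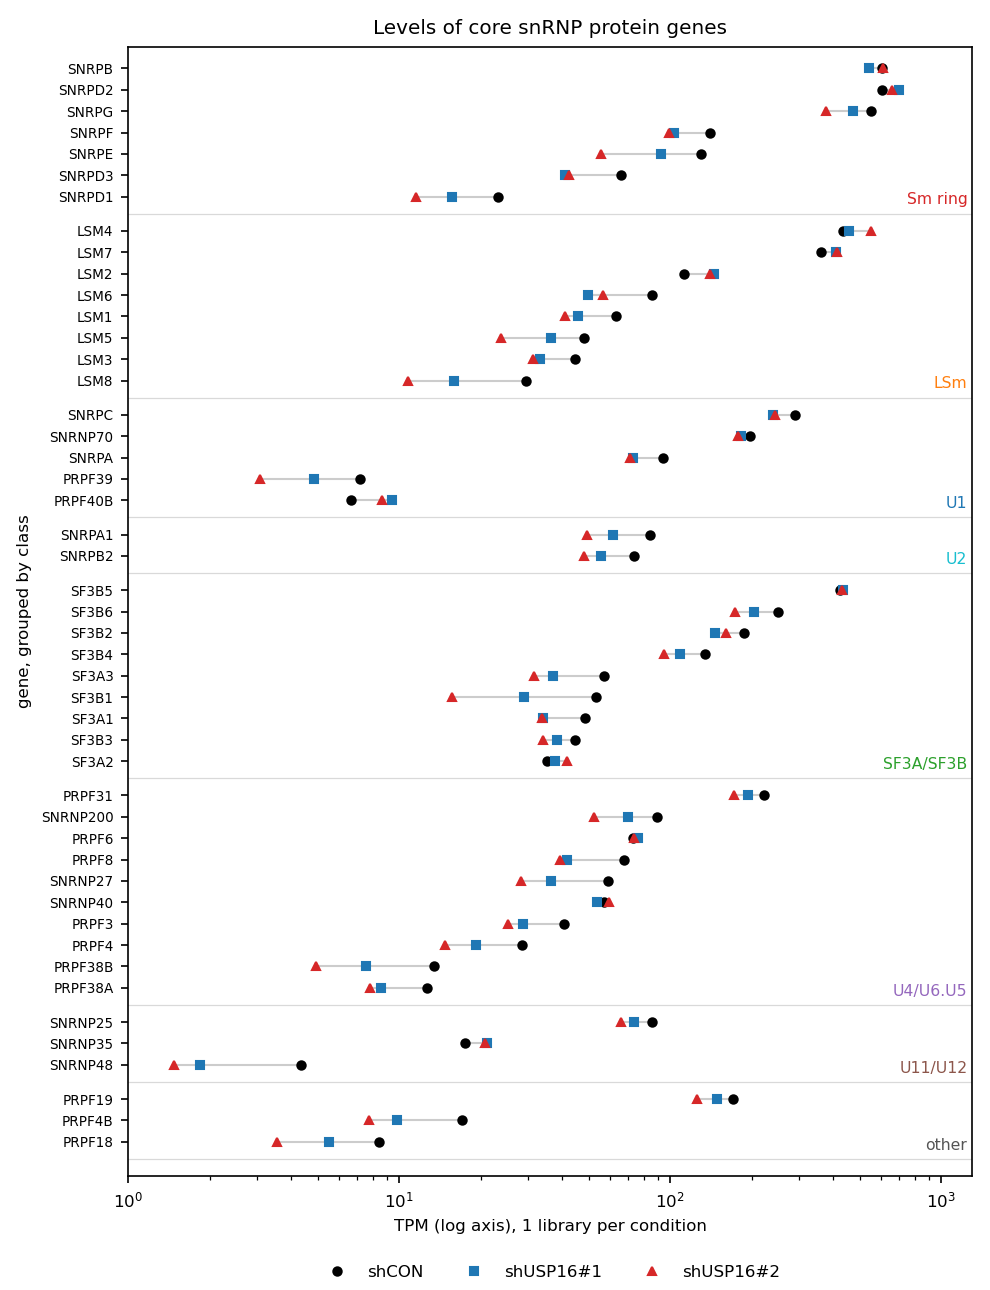
TPM (log axis) of 47 of the 48 genes in shCON (circles), shUSP16#1 (squares) and shUSP16#2 (triangles), grouped by class and ordered by control level, 1 library per condition. Within the Sm and LSm classes the genes of highest level, apart from SNRPG, lie near or above their control level. Those at the bottom are shifted left, LSM8 from 29.4 to 10.8 TPM.

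Of the 6 U1 genes, 5 were lower and 1 higher under both hairpins, with medians of -0.32 and -0.32. The 3 proteins bound to U1 snRNP itself were all lower under both hairpins. SNRPC, which helps U1 engage the 5' splice site, stood at 288, 239 and 244 TPM (-0.27 and -0.24). SNRNP70, which binds a U1 stem-loop, stood at 197, 182 and 177 TPM (-0.11 and -0.15), and SNRPA, another U1 RNA-binding protein, at 94.1, 73.1 and 71.1 TPM (-0.36 and -0.40). The U1-associated factors did not share 1 direction. PRPF40B stood at 6.65, 9.43 and 8.66 TPM, changes of 0.45 and 0.34, the member with the largest increase under shUSP16#1. PRPF39 was at 7.19, 4.86 and 3.06 TPM, changes of -0.48 and -1.01.

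The U2-specific genes SNRPA1 and SNRPB2, whose proteins bind U2 snRNA together, were both lower. SNRPA1 stood at 84.4, 61.6 and 49.2 TPM (-0.45 and -0.77) and SNRPB2 at 73.8, 55.7 and 48.3 TPM (-0.40 and -0.60).

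Of the 9 SF3A and SF3B genes, which clamp U2 on the branch point, 7 were lower and 2 higher under both hairpins, with medians of -0.31 and -0.50. SF3B1, the large scaffold that holds the branch helix, had the largest change of all members under shUSP16#2. It stood at 53.1, 29 and 15.7 TPM, changes of -0.85 and -1.70. Its level under shUSP16#2 was 29.6% of the control. The other subunits of SF3B were spread from near control to moderately lower. SF3B2 stood at 187, 147 and 160.3 TPM (-0.35 and -0.22), SF3B3, a scaffold of beta-propellers, at 44.4, 38.3 and 33.95 TPM (-0.21 and -0.38), and SF3B4 at 135, 109 and 94.8 TPM (-0.31 and -0.50). SF3B6, which lies close to the branch adenosine, stood at 249.6, 204 and 173 TPM (-0.29 and -0.53).

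SF3B5, the smallest SF3B subunit and the SF3 gene of highest level, stood at 423, 434 and 431 TPM, changes of 0.04 and 0.02. SF3B1 thus moved from 119.6% of SF3B3 in shCON to 75.8% and 46.2%, and from 12.5% of SF3B5 to 6.67% and 3.65%, under shUSP16#1 and shUSP16#2. In the SF3A complex, SF3A3 was lower at 56.9, 37.0 and 31.5 TPM (-0.61 and -0.84), as was SF3A1 at 48.7, 34.1 and 33.8 TPM (-0.50 and -0.51). SF3A2, their partner, was higher at 35.1, 37.5 and 41.7 TPM (0.09 and 0.24).

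The 10 genes grouped with the tri-snRNP, among them PRPF38A and PRPF38B, had medians of -0.50 and -0.71, with 8 lower and 1 higher under both hairpins. PRPF8, the scaffold of the catalytic centre, stood at 67.6, 41.6 and 39.1 TPM, changes of -0.69 and -0.77. SNRNP200, the helicase that unwinds U4 from U6, stood at 89.8, 69.8 and 52.5 TPM, changes of -0.36 and -0.76. PRPF6, the bridge between U5 and U4/U6, stood at 72.8, 76.1 and 73.3 TPM, changes of 0.06 and 0.01. The scaffold and the helicase were lower in both hairpin libraries, and the bridge stayed at its control level. PRPF8 was 75.3% of SNRNP200 for shCON, 59.6% for shUSP16#1 and 74.5% for shUSP16#2.

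Among the smaller proteins of this class, PRPF38B stood at 13.4, 7.58 and 4.92 TPM, changes of -0.75 and -1.28. SNRNP27 stood at 59.1, 36.4 and 28.1 TPM, changes of -0.68 and -1.05. The U4/U6 proteins PRPF3 and PRPF4, which bind each other, were lower by similar amounts, with changes of -0.49 and -0.67 for PRPF3 and -0.54 and -0.89 for PRPF4. PRPF38A had changes of -0.52 and -0.64. PRPF31, a U4 protein mutated in retinitis pigmentosa, stood at 222, 194 and 171 TPM (-0.19 and -0.37). SNRNP40, a U5 protein, stood at 57.2, 53.6 and 59.5 TPM (-0.09 and 0.05).

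The 3 members that belong to the U11/U12 particle, which recognises the rare U12-type introns, moved apart. Other proteins of this particle, such as that of ZMAT5 described below, are not among the members. SNRNP48 was the lowest of all members, at 4.35, 1.84 and 1.48 TPM, changes of -0.91 and -1.11. SNRNP35 stood at 17.5, 21.1 and 20.7 TPM, changes of 0.26 and 0.23, and SNRNP25 at 86.0, 73.8 and 65.8 TPM, changes of -0.22 and -0.38. SNRNP48 was 24.9% of SNRNP35 for shCON, 8.72% for shUSP16#1 and 7.16% for shUSP16#2. At levels this low the depth behind SNRNP48 is unknown, and its ratio carries no interval.

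The last 3 members, which act during activation and catalysis, were all lower under both hairpins. PRPF4B, a kinase of tri-snRNP proteins, stood at 17.1, 9.85 and 7.73 TPM, changes of -0.74 and -1.05. PRPF18, a factor of the second catalytic step, stood at 8.46, 5.49 and 3.54 TPM, changes of -0.54 and -1.06. PRPF19, the ubiquitin ligase that gives the Prp19 complex its name, stood at 171, 149 and 126 TPM, changes of -0.20 and -0.44.

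The short Sm and LSm genes were set against the 6 genes of the long helicase and scaffold proteins, SNRNP200, PRPF8, PRPF6, SF3B1, SF3B2 and SF3B3. The 15 Sm and LSm genes had medians of -0.41 and -0.54, and the 6 long genes -0.35 and -0.57. Taking each gene's mean over the hairpins, the medians of the classes differed by -0.04, Sm and LSm minus long. This difference was small beside the range within either class, and it was 0.25 once the trend over GC content, described further on, was removed. Of the Sm and LSm genes, 10 were lower and 4 higher under both, and of the long genes 5 were lower and 1 higher. The rank correlation of the change with coding length over the 48 genes was -0.15 and -0.14.

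Listed gene length separated the members more than coding length did, though what it counts is unknown. SNRPD3 and LSM8 are listed at 3466 and 12384 bases, beyond their longest annotated transcripts of 1763 and 4030 bases. The rank correlation with listed length was -0.51 under either hairpin, against -0.26 and -0.30 over all genes examined. With the longest GENCODE transcript it was -0.49 and -0.43. With listed length and the GC trend removed it was -0.32 and -0.44. The 24 members at or under the median listed length had medians of -0.24 and -0.39, and the 24 longer ones -0.51 and -0.77. Several Sm and LSm genes are among the longer, since SNRPD1, SNRPD3, LSM3, LSM5 and LSM8 have short coding sequences and listed lengths from 2214 to 12384 bases. All 5 were lower under both hairpins. This split was added after the data were seen.

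**Figure D4:**
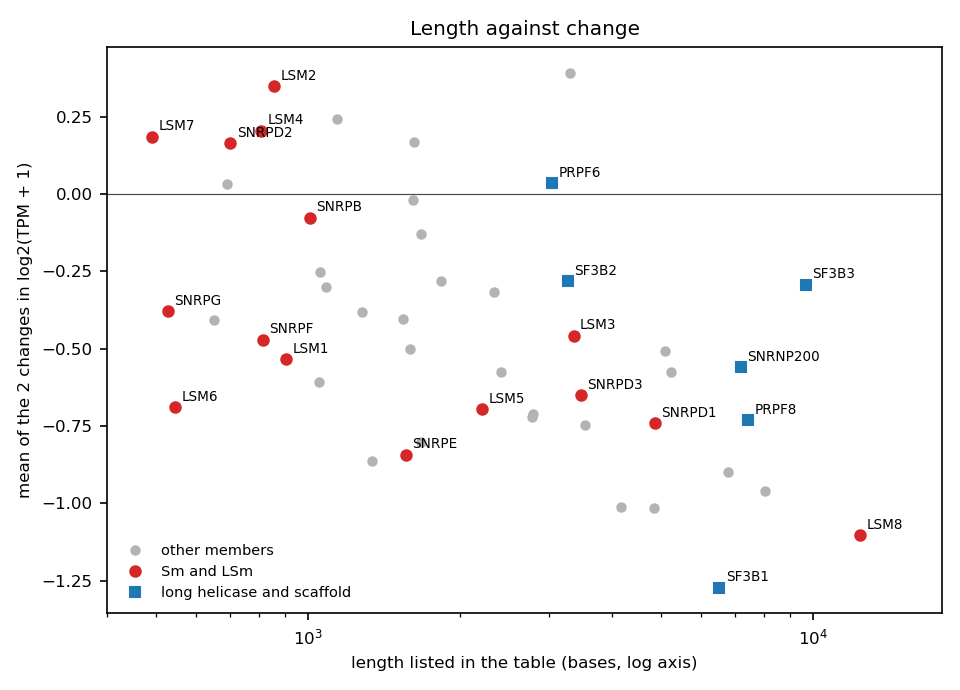
Mean of both changes in log2(TPM + 1) against the gene length listed in the table (bases, log axis) for the 48 genes, 1 point per gene. Sm and LSm genes (red circles) run from LSM2 and LSM7 above 0 at short lengths to LSM8 near -1.1 at 12384 bases, and the long genes (blue squares) from PRPF6 above 0 to SF3B1 at -1.27.

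The changes of the 48 genes followed the GC content of their longest GENCODE transcript, with rank correlations of 0.64 and 0.69, against 0.53 and 0.63 over 13296 genes examined with a GC value. Genes within a library are not independent replicates, and they share the 3 libraries. With GC content at the third codon position the correlations were 0.66 and 0.74. The 16 members lowest in GC, from 35.4% to 40.9%, had medians of -0.53 and -0.97, and 15 were lower under both hairpins. All 2145 genes in the same GC range had medians of -0.60 and -1.01, with 87.6% lower under both. These members were thus close to other genes of their composition.

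The 16 members of middle GC content, 41.0% to 52.2%, had medians of -0.47 and -0.62, against -0.31 and -0.56 for the 5479 genes in that range. Of these members 15 were lower under both, against 70.3% of the genes in the range. The 16 members highest in GC, 52.7% to 66.6%, had medians of -0.04 and 0.01, against 0.11 and 0.05 for 4836 genes, and 7 were lower under both (43.75%) and 8 higher (50%). In that range 31.0% of all genes were lower under both and 46.5% higher. All but 1 of the 9 members higher under both lie in this last class, and the exception is SNRNP35 at 48.8% GC. The part of GC content in these changes was not tested beyond these values.

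**Figure D5:**
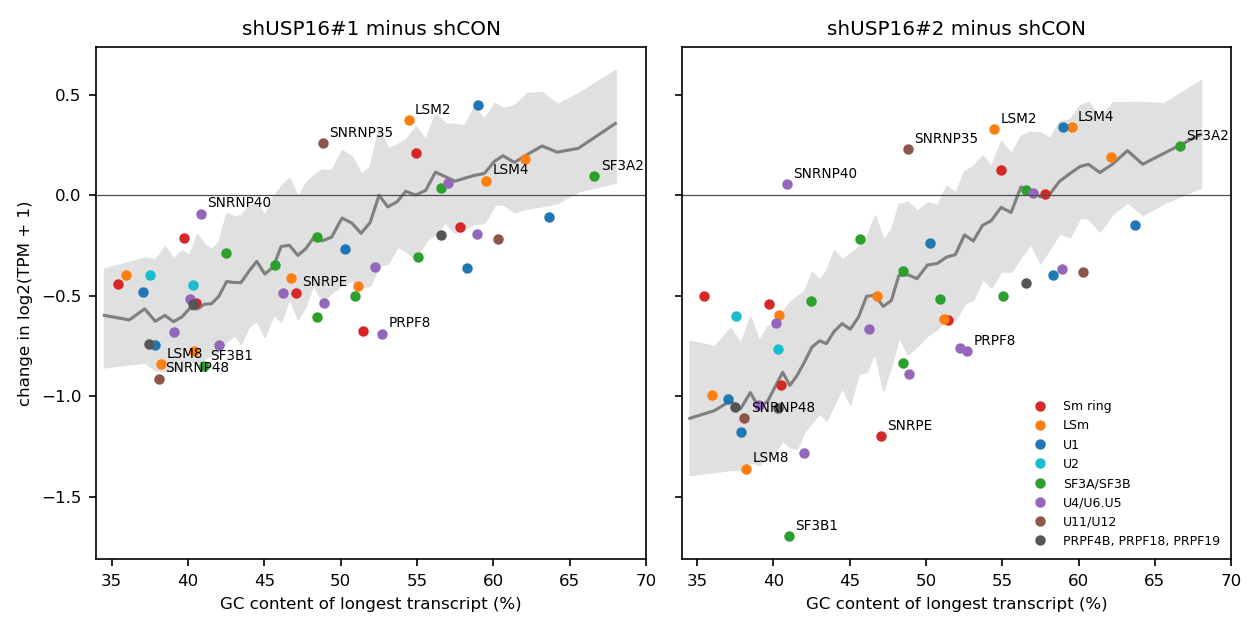
Change in log2(TPM + 1) against GC content of the longest transcript (%) for the 48 genes, under shUSP16#1 (left) and shUSP16#2 (right); the grey line is the median and the band the interquartile range of all genes examined in bins of GC content. Below the line lie SF3B1, SNRPE, PRPF8 and others, such as SNRNP200 and SNRNP25 (not labelled), and above it SNRNP35, SNRNP40 and LSM2.

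With the trend over GC removed, by taking off the median change of each of 50 GC bins and adding back the overall median, the medians of the 48 genes were -0.34 and -0.40, against -0.18 and -0.37 for all genes examined. SF3B1 then had changes of -0.48 and -1.12, SNRPE of -0.36 and -1.02 and PRPF8 of -0.86 and -0.95. These 3 lay below other genes of their composition under shUSP16#2, as did further members, among them SNRNP200, SNRNP25 and PRPF4. Over the 48 genes the rank correlation of GC content with the changes after removal was -0.39 and -0.28. Members rich in GC thus tended to lie lower against the trend. LSM8 had -0.42 and -0.75, and SNRNP48, the lowest under shUSP16#1 before, had -0.46 and -0.42. Above the trend, SNRNP40 had 0.28 and 0.63, SNRNP35 0.31 and 0.25, and LSM2 0.18 and 0.08. SNRPD2 and LSM7, higher before, had 0.03 and -0.19, and -0.20 and -0.34. Against the medians of all genes examined, -0.18 and -0.37, SNRPD2 was still above the trend and LSM7 near it. SNRPD1, the partner of SNRPD2, had -0.15 and -0.44. The Sm and LSm genes then had medians of -0.21 and -0.34 and the long genes -0.34 and -0.66.

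Members that moved apart were also compared in their promoters. RefSeq promoters (GRCh38.p14) were found for 39 of the 48, and the other 9, among them LSM1, LSM6, PRPF3, SNRNP35 and SNRPD1, had no entry. The 250 bases before the start are printed for SF3B1, SNRNP48 and SF3A3, which were lower, and for SF3A2 and LSM4, which were higher. Capitals mark matches to CACGTG (E-box), CCGGAAG (ETS-type), CCAAT or GCATGCGC (NRF1-type) on either strand. The windows are chr2:197435094-197435343 (reverse strand) for SF3B1, chr6:7589948-7590197 (forward) for SNRNP48, chr1:37990023-37990272 (reverse) for SF3A3, chr19:2236574-2236823 (forward) for SF3A2 and chr19:18323077-18323326 (reverse) for LSM4. For SF3B1, the more upstream of 2 annotated starts was used.
SF3B1 promoter: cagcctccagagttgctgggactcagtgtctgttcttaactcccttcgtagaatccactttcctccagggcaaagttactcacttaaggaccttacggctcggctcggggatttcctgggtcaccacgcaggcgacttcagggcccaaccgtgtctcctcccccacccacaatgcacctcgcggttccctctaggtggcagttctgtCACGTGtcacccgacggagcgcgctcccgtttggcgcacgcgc
SNRNP48 promoter: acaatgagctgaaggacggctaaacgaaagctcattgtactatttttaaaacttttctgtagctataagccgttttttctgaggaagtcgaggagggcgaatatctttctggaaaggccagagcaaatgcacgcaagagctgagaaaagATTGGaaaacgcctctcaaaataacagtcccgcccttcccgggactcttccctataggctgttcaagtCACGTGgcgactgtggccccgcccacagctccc
SF3A3 promoter: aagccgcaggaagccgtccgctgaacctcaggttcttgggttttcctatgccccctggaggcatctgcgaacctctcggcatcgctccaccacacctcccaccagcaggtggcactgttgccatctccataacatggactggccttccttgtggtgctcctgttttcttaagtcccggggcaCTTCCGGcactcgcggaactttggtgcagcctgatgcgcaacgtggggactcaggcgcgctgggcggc
SF3A2 promoter: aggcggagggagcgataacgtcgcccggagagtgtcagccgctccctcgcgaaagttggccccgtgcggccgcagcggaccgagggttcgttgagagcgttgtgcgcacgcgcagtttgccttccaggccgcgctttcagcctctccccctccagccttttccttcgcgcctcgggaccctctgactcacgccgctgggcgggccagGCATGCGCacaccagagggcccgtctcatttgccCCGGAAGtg
LSM4 promoter: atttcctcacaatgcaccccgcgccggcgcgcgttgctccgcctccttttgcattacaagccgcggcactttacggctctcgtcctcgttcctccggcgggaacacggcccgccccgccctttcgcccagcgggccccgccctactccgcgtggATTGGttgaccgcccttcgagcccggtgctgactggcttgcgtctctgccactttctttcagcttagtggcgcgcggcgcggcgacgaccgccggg

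The E-box CACGTG, the letters that c-Myc and related factors are known to bind, was found in 2 of the 39 members with a promoter (5.13%). These were SF3B1 and SNRNP48, where it begins 43 and 33 bases before the start. Of the 9522 genes examined with a promoter, 11.3% held it, as did 6.34% of all 35116 promoters. A gene was counted if any of its promoter windows held the letters, while the share of all promoters counts every window singly, so the units differ. The ETS-type letters CCGGAAG were found in 19 of the 39 (48.7%), against 19.6% of the genes examined and 8.52% of all promoters. Members with it had median changes of -0.36 and -0.54, and those without it -0.29 and -0.42. The ETS-type match of SF3A3, lower under both hairpins, begins 68 bases before the start and that of SF3A2, higher under both, 9 bases before it.

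CCAAT was found in 18 of the 39 (46.2%), against 41.5% of the genes examined and 32.0% of all promoters. GCATGCGC was found in LSM7 and SF3A2 (5.13%), against 6.0% and 2.63%. TATAAA was found in SNRPC alone (2.56%), against 7.72% and 10.7%, and AAGATGGC (YY1-type) in SF3B4 alone (2.56%), against 2.41% and 1.36%. CTCTTTC, a pyrimidine stretch, was found in LSM3, SNRPB2 and SNRPD3 (7.69%), against 7.55% and 6.44%. None of these 7 strings contains another. They were chosen after values were seen, and describe letters, not binding.

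Of 82 other spliceosome and snRNP assembly genes, listed by complex and all above the minimum, 68 were lower under both hairpins (82.9%), against 57.2% of all genes. Higher under both were 10 (12.2%), against 24.5%. The medians of the 82 genes were -0.40 and -0.56. These values lie close to those of the 48 members. With the GC trend removed the medians of the 82 genes were -0.31 and -0.48, against -0.18 and -0.37 for all genes examined. At least 1.5-fold lower under both were 25 of the 82 (30.5%), against 20.8% of all genes, without regard to GC content. The 18 factors of early U1 and U2 recognition had the lowest medians, -0.67 and -0.90, or -0.52 and -0.79 with the GC trend removed. The 17 assembly genes, which serve Sm ring loading and the export, capping, import and maturation of snRNPs, had medians of -0.39 and -0.51.

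The largest decreases in that list were those of DDX46 and U2SURP, which act with U2 snRNP. DDX46 stood at 26.4, 10.2 and 5.43 TPM (-1.29 and -2.09) and U2SURP at 23.4, 9.67 and 6.75 TPM (-1.19 and -1.66). PLRG1 of the Prp19 complex had changes of -1.11 and -1.1, and SLU7, a factor of the second step, -1.06 and -1.29. The longest transcripts of DDX46, U2SURP and PLRG1 hold 38.7%, 36.2% and 39.5% GC. All genes from 35.4% to 40.9% GC had medians of -0.60 and -1.01. SMN1, whose protein loads Sm rings, had -1.12 and -1.06, a value made uncertain by its near-identical copy SMN2. The largest increases were those of ZMAT5, a U11/U12 protein (0.65 and 0.71), GEMIN8 of the SMN complex (0.45 and 0.42), UBL5 (0.28 and 0.37), PRMT5, which methylates Sm proteins (0.23 and 0.16), and PUF60 (0.09 and 0.10). In the KEGG term for the spliceosome, as annotated in the table, 132 protein-coding genes were examined, 42 of them members, with medians of -0.44 and -0.66. The 90 genes of the term that are not members had -0.49 and -0.75, or -0.35 and -0.55 with the GC trend removed.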

How the data were processed

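PC3 cells with shCON, shUSP16#1 or shUSP16#2 gave 1 library each. The authors deposited a single table of TPM, with 2 decimals per value. RNA was extracted with Trizol and libraries made with a TruSeq kit. The submitters' processing notes name CASAVA, HISAT2 and hg19, and the quantification tool is not given in the sources used here. The table holds no coordinates. TPM summed to between 999999 and 1000001 per library, so depth is unknown and no interval was given. Columns that repeat the 3 samples were not used.

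From the deposited TPM, log2(TPM + 1) under each hairpin minus shCON was computed for genes whose mean was 1 TPM or more, after 1211 entries repeating a symbol were left out. Length, GC content and coding sequences came from GENCODE release 29 (GRCh38), which matched 58457 identifiers, and 97.5% of genes examined had a GC value. Promoters came from RefSeq (GRCh38.p14). The rule of the text named all Sm, LSm and long genes, the 8 other members of highest level, the 8 with the largest decrease and the 8 with the largest increase under both hairpins by the smaller change, and 5 each way of the other list. PRPF3, PRPF4, PRPF18, PRPF38A, PRPF39, SF3A1, SF3A3, SNRPA1, SNRPB2, SNRNP25 and SNRNP40 fall outside that rule and were named to cover each class. Of the members, 1 is counted but not reported here by name. Members and lists were chosen with earlier results of these data known. Alternatives were a pseudocount of 0.1, no minimum or 5 TPM, centring, GC removal, each hairpin alone and other length splits. The computation was tested on simulated data. Python 3.11.15, numpy 2.4.6, pandas 2.3.3 and matplotlib 3.10.9 were used.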

Additional observations from a re-analysis of the deposited data

Results flagged for a closer look

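SNRPB, the gene of the Sm B proteins, changed by -0.16 under shUSP16#1 and 0.0064 under shUSP16#2, and SNRNP40, of U5, by -0.092 and 0.055. These 2 members moved in opposite directions under the hairpins, and the difference was not tested, since there is 1 library per condition. Outside the members, the processed pseudogene SNRPEP4 was listed at 0 in shCON, at 1.25 TPM under shUSP16#1 and at 1.13 TPM under shUSP16#2, and SNRPGP4 was listed at 0 in shCON and under shUSP16#1 and at 4.11 TPM under shUSP16#2. Their parents SNRPE and SNRPG were lower in the same libraries, and whether reads passed between parent and copy was not tested.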

How the results depend on the processing

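The median change of the 48 genes stayed below 0 under every alternative run. Relative to the median of all genes it was -0.23 under shUSP16#1 and -0.17 under shUSP16#2. With the GC trend removed the median under shUSP16#2 was -0.40, and with centring as well the medians were -0.16 and -0.023, so under shUSP16#2 little was left beyond the trend and the general shift. GC removal left 38 members lower under both hairpins, against 61.4% of all genes. It left 6 higher under both, for which the share over all genes was not computed. The count of members at least 2-fold lower under both, 0 as reported, was 1 with a pseudocount of 0.1, 10 with shUSP16#2 alone and 11 at 1.5-fold. The Sm and LSm genes minus the long genes, -0.04 as reported, changed sign to 0.25 with the GC trend removed, with or without centring, and to 0.026 with shUSP16#2 alone. A different contrast, the shorter minus the longer members of all 48, gave 0.24 when split at the median transcript length and 0.33 at the median listed length. The cause of these shifts was not tested. GC removal with centring, the split by listed length and the threshold of 1.5-fold were chosen after seeing the data. Of 42 values under alternatives, 29 kept their sign and stayed within 0.1 on the log2 scale or within 1.5 times the count. Part of these 29 could not change, so their number is no measure of stability. All 48 genes pass the minimum, so dropping it alters no member value, and centring cannot alter a difference between classes. Many others are counts of 0 that stayed 0. No paired analysis was possible because there is 1 library per condition and no replicate number.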
